A study of Rattus norvegicus with 18 samples.

Results

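A set of 99 genes, of 9149 tested, lost most of their 6 h level early in vehicle culture, and the question here was which of them chlorothalonil-treated cells kept. The fall that chose them was measured in DMSO arrays. Each gene was read from its brightest probe set, the one with the highest mean over 18 arrays, and had to lie above log2 4 in at least 3 arrays of any group. Of the members, 94 passed that filter on DMSO arrays alone, and 5, Cflar, Cxcl10, Dnase1l3, Nr4a3 and Peg10, passed only with treated arrays. A member's DMSO mean at 6 h lay at least 2 log2 units, a 4-fold difference, above its DMSO mean at 24 h and likewise above its DMSO mean at 72 h. The cells were NRK-52E, an established line of rat kidney proximal tubule epithelium of Osborne-Mendel genotype, grown in medium with 10% fetal calf serum until confluent. The 6 groups of 3 arrays were cells given 1.1 µM chlorothalonil in 0.1% DMSO for 6, 24 or 72 h and cells given 0.1% DMSO alone for the same times. That dose is the one the labels give as the 72 h IC10. All groups therefore shared the solvent, and no array of untreated cells or of cells before exposure was analysed here. Each group's arrays are labelled as biological replicates from 3 studies per time, without saying which arrays of different groups share a study.

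Chlorothalonil is an organochlorine fungicide that reacts with thiols such as glutathione. Thiol-reactive compounds are known to activate the transcription factor NRF2, whose targets make antioxidant enzymes. Growing cells transcribe genes for ribosome assembly in the nucleolus and for DNA replication more strongly than confluent, resting cells do, and smooth muscle type contractile genes respond to serum and to actin dynamics through the serum response factor. In the tissue itself, proximal tubule epithelium divides little unless injured.

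The label of the cells was checked against markers. Of 25 listed genes of proximal tubule function, 5 passed the filter on low values, among them Ggt1, a brush border peptidase, at log2 3.35 to 9.20 over the 18 arrays, while Aqp1, the tubule's water channel, had a median of 2.12 and a highest value of 7.22. The transporters Slc34a1 and Lrp2 did not pass. Of 12 listed epithelial identity markers of the line, 5 passed, Ggt1 and Aqp1 among them. The epithelial keratin Krt8 lay at 12.70 to 14.45, Vim at 14.7 to 15.47 and Cdh2 at 6.72 to 8.9. Krt18, Cdh1 and Epcam of that list did not pass, so it does not settle epithelial identity. None of 12 distal nephron markers passed. Of 10 leukocyte markers, Cd68 alone passed, at 9.23 to 9.61 in treated arrays at 72 h against 3.39 to 4.32 in DMSO arrays. The summed log2 level of 5 fibroblast markers was 46.07 to 47.94 in treated arrays at 72 h against 53.18 to 53.77 in DMSO arrays. That of 5 proximal tubule markers was 29.59 to 31.82 against 33.91 to 34.82. Their part in the results was not tested. In these bulk cultures, fewer cells of a type and less RNA per cell cannot be told apart.

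Values are GCRMA log2 signals, and the median over all probe sets of an array lay between 3.93 and 4.22. Spiked poly-A control transcripts averaged log2 10.60, 10.86 and 10.68 in treated arrays at 6, 24 and 72 h, and 9.98, 9.79 and 10.01 in DMSO arrays, with 1 DMSO array at 24 h (replicate 1) at 8.97. Scaling each array to these controls put the median change of all genes between treated 24 h and treated 6 h arrays at -0.215 instead of 0.05, and that between treated 72 h and treated 24 h arrays at 0.237 instead of 0.057. Counts of changes among treated arrays under this scaling are given below beside the main ones where they differ by much. Comparisons of treated with DMSO arrays are given on the deposited scale only. The controls averaged higher in treated than in DMSO arrays at each time, and how far those comparisons would move under this scaling was not tested.

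Before the levels, promoter sequences are shown for the members on which the results turn. RefSeq (assembly GRCr8) gave a promoter for 82 of the 99 members and for 7724 of the genes tested, and the 250 bases before each start were searched on both strands. The first pair are the windows of Acta1, skeletal muscle alpha-actin, on the minus strand at chr19:68784195-68784444, and of Nppb, the precursor of B-type natriuretic peptide, on the plus strand at chr5:163699758-163700007. Capitals mark the promoter element spelled TATAAA, the core CATTCC bound by TEAD factors and the CArG box, the element bound by serum response factor, in either orientation.
Acta1: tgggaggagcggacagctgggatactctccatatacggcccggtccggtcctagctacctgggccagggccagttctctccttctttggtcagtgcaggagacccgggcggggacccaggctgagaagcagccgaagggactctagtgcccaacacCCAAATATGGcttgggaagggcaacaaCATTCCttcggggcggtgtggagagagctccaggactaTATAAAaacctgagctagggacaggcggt
Nppb: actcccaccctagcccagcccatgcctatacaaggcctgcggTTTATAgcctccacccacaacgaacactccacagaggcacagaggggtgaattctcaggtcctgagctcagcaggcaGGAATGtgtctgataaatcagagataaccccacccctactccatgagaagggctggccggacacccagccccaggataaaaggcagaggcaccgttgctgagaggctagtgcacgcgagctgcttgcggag
Only Acta1 among the members with a promoter held a CArG box (1.22%), which 1.32% of tested genes and 1.5% of all 27457 promoters also held. TATAAA was found in 5 members (6.1%), against 5.88% of tested genes and 13.1% of all promoters. CATTCC was found in 10 members (12.2%), against 9.7% and 11.8%.

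The next set shows the E-box CACGTG, the palindrome bound by MYC and related factors, in capitals with its flanks. It is shown because 12 of the 82 members held it (14.6%), against 8.98% of tested genes and 5.79% of all promoters. Of these 12, 2 belong to ribosome assembly, 2 to amino acid and polyamine metabolism and 1 to chromatin assembly, and those are printed. Not printed are 3 of transport, mitochondria and others, 2 of mitosis and lamina, 1 of other RNA handling and 1 of signalling. By role, ribosome assembly held it in 2 of 12 promoters, transport, mitochondria and others in 3 of 18 and mitosis and lamina in 2 of 5. Lyar lies on the minus strand at chr14:76802823-76802882, Tma16 on the plus strand at chr16:28003321-28003380, Slc7a5 on the minus strand at chr19:66872559-66872618, Srm on the plus strand at chr5:164308802-164308861 and Chaf1a on the plus strand at chr9:961111-961170.
Lyar: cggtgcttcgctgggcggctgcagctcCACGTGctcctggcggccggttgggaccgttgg
Tma16: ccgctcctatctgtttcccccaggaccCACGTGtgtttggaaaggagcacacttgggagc
Slc7a5: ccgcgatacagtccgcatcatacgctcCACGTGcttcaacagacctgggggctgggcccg
Srm: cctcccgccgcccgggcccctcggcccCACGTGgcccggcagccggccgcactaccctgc
Chaf1a: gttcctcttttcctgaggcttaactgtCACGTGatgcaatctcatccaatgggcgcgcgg
The oxidant defence gene Srxn1 held an AP-1 type site, TGACTCA, shown in capitals as read on the plus strand at chr3:161064723-161064783.
Srxn1: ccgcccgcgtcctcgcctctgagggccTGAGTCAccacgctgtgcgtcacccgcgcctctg
TGACTCA was found in 3 members (3.66%), Cxcl10, Lgals9 and Srxn1, against 3% of tested genes. The remaining motifs were TGACGTCA (CRE) in 4 members (4.88%, against 3.21%), CCGGAAG (ETS) in 9 (11%, against 17.5%) and TTTGAA (the cell cycle homology element) in 12 (14.6%, against 9.85%). The hypoxia response core, ACGTG or GCGTG, whose first form lies inside CACGTG, was found in 43 (52.4%, against 58.9%). A match is a description of the letters in this window only.

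In DMSO culture the members' medians lay at log2 8.22 at 6 h, 5.50 at 24 h and 5.03 at 72 h, while all tested genes stayed near 9.28, 9.17 and 9.24. These DMSO values chose the members and carry no test. The difference between 6 h and 24 h ran from 2.01 to 7.05 over the members with a median of 2.32, and that between 6 h and 72 h from 2.0 to 7.47 with a median of 2.71. Every DMSO array at 24 h and at 72 h lay under every DMSO array at 6 h in all 99 members, as it did in 40.6% and 40.7% of all tested genes. Just inside the threshold stood Slc25a37, a mitochondrial iron importer (2.185 at 24 h and 2.0 at 72 h), Mrs2, a mitochondrial magnesium channel (2.013 and 2.067), and Cflar, a caspase-8 inhibitor (2.014 and 2.168). Just outside stood Lyn (1.999 and 3.036), Map6 (1.995 and 2.315) and Cdca5l1 (2.185 and 1.994). The rule itself required the drop by 24 h in every member. The median further difference between 24 h and 72 h in DMSO cells was -0.22. Members already at or below log2 4 at 24 h had little room to fall further. The word lost describes a lower level more often than absence. At 24 h, 24 of the 99 members had all 3 DMSO arrays at or below log2 4, taken here as background, and at 72 h 37 did.

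Treated cells held most of these transcripts at 24 h and let most of them go by 72 h. The members' medians were 8.79 at 6 h, 7.69 at 24 h and 6.38 at 72 h in treated cells. A member was counted as kept when the treated mean lay no more than 1 log2 unit under the treated mean at 6 h. At 24 h 58 of 99 were kept, 31 lay between 1 and 2 units under and 10 at least 2 units under, the fall that the rule required of DMSO cells. Among all genes 96.6% were kept at 24 h and 0.536% lay at least 2 units under. At 72 h 13 were kept, 25 lay between and 61 at least 2 units under, against 87.8% kept and 3.07% at least 2 units under among all genes. Scaled to the poly-A controls, 38 instead of 58 were kept at 24 h. Without DMSO replicate 3 at 24 h, which also chooses the members again, 5 of 81 were kept at 72 h.

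The rule's differences used no treated array, so changes among treated arrays were tested, although the probe set and the filter on low values drew on all arrays. With limma, at a Benjamini-Hochberg adjusted p under 0.05 over all 9149 genes, 80 members were lower at 24 h than at 6 h, 4 were higher and 15 were not called. Over all genes 24.9% were called lower and 34.6% higher in that comparison. The members' median change was -0.88 on the log2 scale, against 0.05 over all genes. At 72 h against 6 h, 93 members were lower, 2 higher and 4 not called, against 33.5% lower and 46.1% higher over all genes, and the median was -2.29 against 0.14. At 72 h against 24 h, 76 were lower, 6 higher and 17 not called, against 33.3% and 39.5%, with a median of -1.32 against 0.06. Under poly-A scaling 73, 92 and 62 members were lower in these comparisons, and of the 94 members that passed the filter on DMSO arrays alone 77, 88 and 73 were. With groups at background set to log2 4, the members' medians were -0.86, -2.22 and -1.28. The 4 members called higher at 24 h were 2 under poly-A scaling, and 2 without treated replicate 3 at 6 h. The same rule applied to treated arrays was met by 44 of all 9149 genes tested and by 10 of the 99 members (22.7% of that list and 10.1% of the members).

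**Figure D1:**
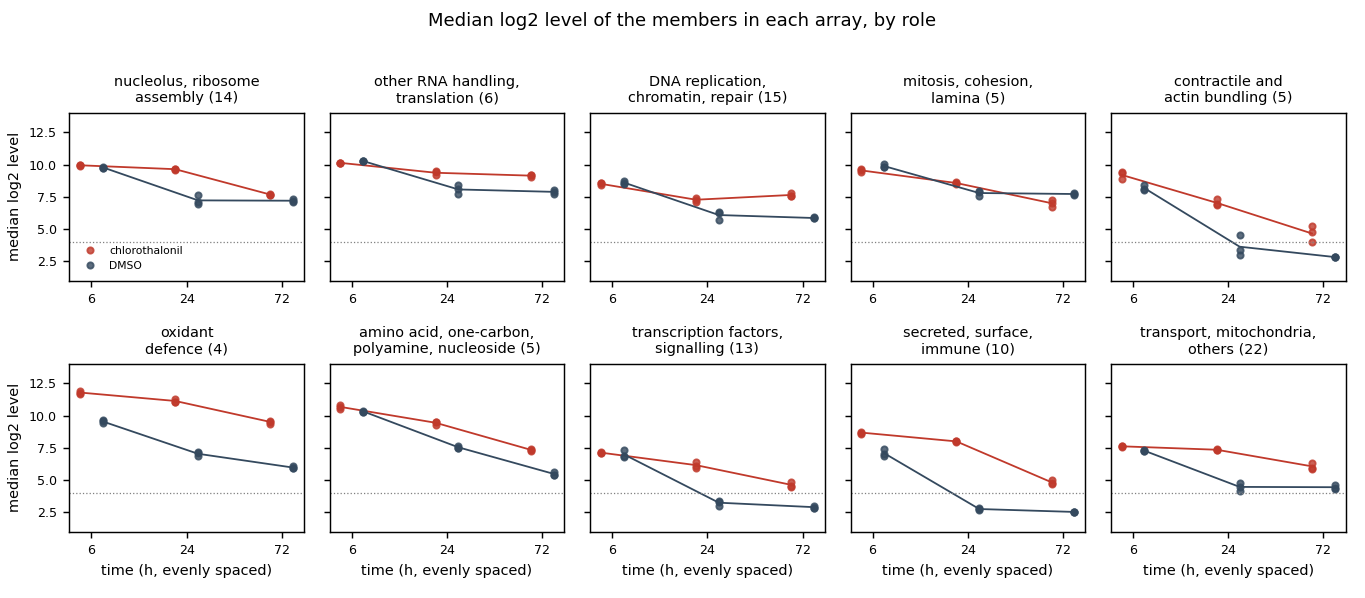
Median log2 level (y axis) of the members of each role in each of the 18 arrays at 6, 24 and 72 h (x axis), with chlorothalonil-treated arrays in red to the left and DMSO arrays in dark blue to the right of each time. Points are arrays, lines join group means, the dotted line is log2 4 and the number of members is in brackets. For ribosome assembly the treated arrays stand at 9.59 to 9.67 at 24 h, against 6.94 to 7.64 in DMSO arrays, and at 7.64 to 7.71 at 72 h, against 7.11 to 7.34.

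Set against DMSO arrays of the same time, a description because those arrays chose the members, treated levels were higher for most members at 24 h. These values are on the deposited scale and were not computed under poly-A scaling, although the poly-A controls averaged higher in treated arrays. The median of treated minus DMSO was 0.36 at 6 h, 1.94 at 24 h and 1.0 at 72 h. At least 1 unit above DMSO lay 22 members at 6 h, 84 at 24 h and 50 at 72 h, against 4.68%, 10.6% and 7.68% of all genes. All 3 treated arrays lay above all 3 DMSO arrays in 58, 90 and 81 members at those times, against 32.1%, 40.4% and 40.1% of all genes. At 6 h 6 members lay at least 1 unit under DMSO, against 6.88% of all genes: Depdc1b, Gpam, Lmnb2, Clspn, Bard1 and Brca1. Across times, the treated mean at 24 h lay within 1 unit of the DMSO mean at 6 h in 60 members, against 87.7% of all genes. The treated mean at 72 h lay within 1 unit of the DMSO mean at 24 h in 65 members, against 87.4%. The median difference of these was -0.55 and 0.59.

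**Figure D2:**
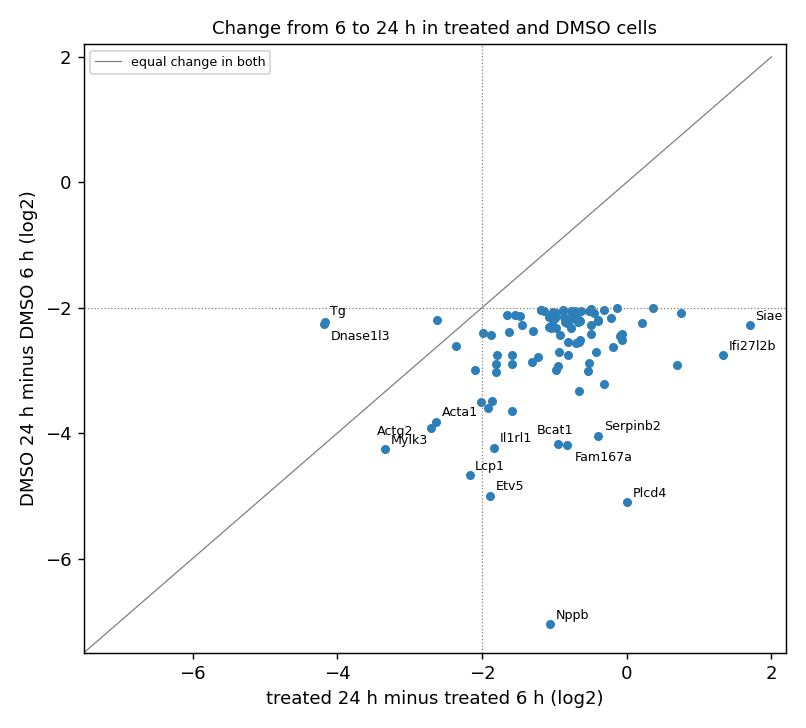
Each point is 1 of the 99 members, with the treated 24 h minus treated 6 h mean on the x axis and the DMSO 24 h minus DMSO 6 h mean on the y axis, both in log2 units. The grey line marks equal change, the dotted lines mark -2, and all points lie at or under -2 on the y axis because the rule put them there. Tg, Dnase1l3 and Cxcl10, at background in DMSO arrays at 24 h, lie above the line, and Nppb and Plcd4 lie farthest under it. Because background bounds the DMSO change of Tg, Dnase1l3 and Cxcl10, their place above the line does not compare the cultures.

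The members were grouped by role after they were known, as a description with no test of the groups. Nucleolus and ribosome assembly had 14 members, most of them held at 24 h and lower by 72 h in treated cells. Of these 13 were kept at 24 h, 9 under poly-A scaling, and none at 72 h. At 24 h against 6 h 12 were called lower, 9 under poly-A scaling, by a group median of -0.66. At 72 h against 24 h all 14 were, 13 under poly-A scaling, by a median of -1.83. Rrp12, which carries pre-ribosomal subunits toward the cytoplasm, read 10.00, 10.05 and 9.96 in treated arrays at 6 h, 9.42, 9.42 and 9.58 at 24 h and 6.88, 7.06 and 7.06 at 72 h. DMSO arrays read 9.67, 9.65 and 9.67 at 6 h, 6.37, 6.73 and 6.84 at 24 h and 6.67, 6.29 and 7.12 at 72 h. Treated arrays at 24 h thus lay clear of DMSO arrays at 24 h, while at 72 h the ranges overlapped. Its log2 change was -0.53 (SE 0.16, limma adjusted p = 0.00863) at 24 h against 6 h in treated cells, a call lost under poly-A scaling (adjusted p = 0.0773). Its change at 72 h against 24 h was -2.47 (SE 0.16, limma adjusted p = 2.36e-09).

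Gar1, a protein of the H/ACA particles that place pseudouridines in ribosomal RNA, was among the brightest of the group. It read 12.06, 12.04 and 11.89 in treated arrays at 6 h, 11.27, 11.12 and 11.15 at 24 h and 9.74, 9.79 and 9.82 at 72 h. The DMSO arrays stood at 11.30, 11.45 and 11.37 at 6 h, 9.13, 9.34 and 9.10 at 24 h and 9.18, 9.19 and 9.34 at 72 h. All treated arrays lay above all DMSO arrays at 6 h and at each later time, and the gap was widest at 24 h. Gar1 fell by 1.40 on the log2 scale between treated 72 h and 24 h arrays (SE 0.08, limma adjusted p = 5.32e-10).

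Wdr12, a factor of large subunit maturation, averaged 10.37 in treated cells at 24 h, against 7.86 in DMSO cells, and 8.73 at 72 h, against 8.01. Rrp9, a protein of the U3 particle that processes ribosomal RNA, was the single member of the group not kept at 24 h, with a treated change of -1.45 (SE 0.31, limma adjusted p = 0.00101). Ngdn and Rbm19, both small subunit assembly factors, were not called at 24 h, with changes of -0.09 and -0.42. The largest treated fall between 6 and 72 h in the group was also that of Rrp9, 12.1-fold, followed by Utp14a, of the small subunit processome, at 8.77-fold, and Mrto4, which helps assemble the ribosomal stalk, at 8.26-fold. Utp14a ended lower in treated cells at 72 h, at 5.27, 5.95 and 5.84, than in DMSO cells, at 6.41, 6.69 and 6.80, with no overlap. Tma16 and Lyar, whose promoters are shown above, were kept at 24 h, with treated changes of -0.50 and -0.86. Emg1, a ribosomal RNA methyltransferase, averaged 11.05 in treated cells at 24 h, against 8.94 in DMSO cells, and 9.49 at 72 h, against 8.46. Pop1, a subunit of the RNase MRP and RNase P enzymes, averaged 8.21 and 6.38 at those times in treated cells, against 6.31 and 6.03 in DMSO cells. For Nkrf, a second probe set had DMSO means of 7.74, 6.09 and 7.44 at 6, 24 and 72 h and did not meet the rule.

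Of 29 tested genes on a list of ribosome biogenesis genes, which includes the members Wdr12, Rrp9, Rrp12 and Gar1, 27 were called lower at 24 h than at 6 h in treated cells, 14 under poly-A scaling, and 0 higher, at an adjusted or an unadjusted limma p. The list's median change was -0.59. At 72 h against 24 h all 29 were called lower, 17 under poly-A scaling, with a median of -1.19. In DMSO cells the list's median difference between 24 h and 6 h was -1.72.

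Another 6 members handle other RNAs or translation. All 6 were called lower in treated cells at 24 h against 6 h, with a median of -0.79, and 5 of them, 4 under poly-A scaling, lower again at 72 h against 24 h. Ddx39a, an RNA helicase of mRNA export, was the brightest, at 13.08, 13.00 and 12.98 in treated arrays at 6 h, 12.52, 12.23 and 12.39 at 24 h and 9.82, 10.01 and 9.98 at 72 h. In DMSO arrays it stood at 12.42, 12.33 and 12.52 at 6 h, 9.84, 10.11 and 9.74 at 24 h and 8.90, 8.93 and 9.10 at 72 h. Treated cells at 24 h thus overlapped DMSO cells at 6 h, and treated cells at 72 h overlapped DMSO cells at 24 h. Aimp2, a scaffold of the tRNA synthetase complex, had a treated change of -0.77 at 24 h and -2.57 at 72 h against 6 h. Gemin6, of the complex that loads Sm proteins onto spliceosomal RNAs, was kept at both times, at 9.15, 9.26 and 9.22 at 72 h in treated arrays against 7.55, 7.74 and 7.80 in DMSO arrays.

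DNA replication, chromatin assembly and repair formed the largest named role, 15 members, and had another course. All 15 were called lower at 24 h against 6 h in treated cells, by a median of -1.19, and 5 were kept, 1 under poly-A scaling. Between 24 h and 72 h 5 were called higher, 5 lower and 5 not called, while under poly-A scaling 5 were higher and 2 lower. The median of that step was 0.02 on the deposited scale, -0.06 with arrays centred on their median and 0.20 under poly-A scaling. At 72 h 5 members were kept. All 15 had a higher mean in treated than in DMSO cells at 72 h, as did 90 of the 99 members and 5128 of the 9149 genes tested. The rule itself required DMSO means at 72 h to be low against 6 h.

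Of the 5 members called higher between 24 h and 72 h, against 5 lower, Polh came closest to its treated 6 h level. Polh is the polymerase that copies past ultraviolet damage. It read 8.43, 8.78 and 8.84 in treated arrays at 6 h, 7.91, 7.86 and 7.75 at 24 h and 8.64, 8.60 and 8.77 at 72 h. In DMSO arrays it read 8.73, 7.99 and 8.34 at 6 h, 6.14, 6.04 and 6.2 at 24 h and 5.83, 5.91 and 5.84 at 72 h. The treated arrays at 72 h lay within the range of those at 6 h and far above those of DMSO. Polh rose by 0.83 (SE 0.14, limma adjusted p = 9.66e-05) between treated 24 h and 72 h cells, and at 72 h was 7.02-fold higher in treated than in DMSO cells.

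Brca1, a repair and checkpoint protein, started lower in treated cells. Its arrays read 6.15, 5.79 and 5.85 at 6 h, 4.45, 4.43 and 4.49 at 24 h and 5.66, 6.05 and 5.37 at 72 h in treated cells. In DMSO cells they read 7.12, 6.57 and 7.23 at 6 h, 5.25, 5.18 and 4.10 at 24 h and 4.44, 4.36 and 4.31 at 72 h. Treated arrays were under DMSO arrays at 6 h, overlapped them at 24 h and lay above them at 72 h. Brca1 fell by 1.47 (SE 0.25, limma adjusted p = 0.000144) at 24 h against 6 h and rose by 1.24 (SE 0.25, limma adjusted p = 0.000456) at 72 h against 24 h, while 72 h against 6 h was not called (-0.24, adjusted p = 0.398). Its partner Bard1, which was kept at 24 h with a change of -0.99, had no called change at 72 h against 24 h (0.15, adjusted p = 0.532). The treated mean of Bard1 at 6 h already lay 1.17 under the DMSO mean. At 24 h Bard1 averaged 5.64 in both cultures, and at 72 h 5.79 in treated against 4.68 in DMSO cells.

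Ddias, an anti-apoptotic factor named for DNA damage, the exonuclease Exo1 and the checkpoint adaptor Clspn also rose between 24 h and 72 h in treated cells, by 0.92, 0.79 and 0.75. Exo1 stood at 7.74, 7.56 and 7.96 in treated arrays at 72 h, against 6.99, 6.75 and 6.95 in DMSO arrays, with no overlap, whereas at 24 h the 2 groups overlapped. Its change at 72 h against 6 h in treated cells (-0.40, limma adjusted p = 0.0461) lost its call under poly-A scaling, with the replicate block (adjusted p = 0.0655) and in each of the 3 fits without a treated 6 h array (adjusted p = 0.0514 to 0.156). Orc1, the large subunit of the origin recognition complex, went the other way. It lay at 6.89, 6.04 and 7.06 in treated arrays at 24 h and at 5.72, 5.17 and 5.34 at 72 h, a fall of 1.25 (SE 0.26, limma adjusted p = 0.000454). Ercc1, of a nuclease of excision repair, and Mre11, of the break-sensing complex, fell likewise, by 1.47 and 0.88. Of the paired subunits of chromatin assembly factor 1, Chaf1a, whose promoter is shown above, averaged 8.34 at 24 h and 8.37 at 72 h in treated cells, against 7.92 and 7.89 in DMSO cells, and Chaf1b averaged 7.22 and 6.7, against 6.11 and 6.27. Pole2, a subunit of DNA polymerase epsilon, averaged 8.27 in treated cells at 72 h, against 6.66 in DMSO cells. Mybl2, a transcription factor of cycling cells, averaged 7.7, against 5.45. Hrob, a loader of the MCM8 and MCM9 helicase, was at background in treated cells at 24 h and 72 h.

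On a list of DNA replication and repair genes, with Orc1, Brca1 and Exo1 as members, 26 of 27 tested genes were called lower at 24 h against 6 h in treated cells and 0 higher, at an adjusted or an unadjusted limma p, with a median of -0.91. At 72 h against 24 h 12 were called higher and 7 lower, which became 6 and 3 under poly-A scaling and 10 and 9 with arrays centred on their median. No member belonged to a list of mitosis genes, of which 26 of 28 were lower at 24 h and all 28 higher at 72 h against 24 h, with a median of 1.19. Under poly-A scaling these counts were 19 lower and 25 higher.

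A group of 5 members acts in mitosis, cohesion or the nuclear lamina. All 5 were kept at 24 h, 4 under poly-A scaling, and 1 at 72 h, measured from a treated 6 h level that was itself low. The median of treated minus DMSO was -0.83 at 6 h, with 1 of the 5 above 0. At 24 h it was 0.59, with 1 of the 5 at least 1 unit above DMSO, against 84 of all 99 members. For Lmnb2, of the nuclear lamina, the treated mean at 6 h already lay 1.26 under the DMSO mean. At 24 h Lmnb2 averaged 7.6 in treated and 7.47 in DMSO cells. Depdc1b, which in human cells promotes cell cycle progression, had the largest treated rise of any member between 24 h and 72 h. It read 5.12, 4.10 and 4.38 in treated arrays at 6 h, 3.94, 3.86 and 4.30 at 24 h and 6.64, 7.0 and 6.82 at 72 h. DMSO arrays read 6.94, 6.42 and 7.27 at 6 h, 4.86, 4.78 and 4.14 at 24 h and 4.0, 4.94 and 5.09 at 72 h. Treated arrays at 72 h lay within the range of DMSO arrays at 6 h. The rise was 2.79 (SE 0.31, limma adjusted p = 1.04e-06) over 24 h and 2.29 over 6 h. Its treated mean at 6 h, against which it counted as kept at 24 h, already lay 2.34 under the DMSO mean. Cenpn, of the inner kinetochore, and Spdl1, which recruits dynein to kinetochores, fell by 1.15 and 1.07 between treated 6 h and 72 h cells. Pds5b, a cohesin regulator, fell by 3.15, but its second probe set had DMSO means of 8.47, 7.99 and 9.02 and did not meet the rule.

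**Figure D3:**
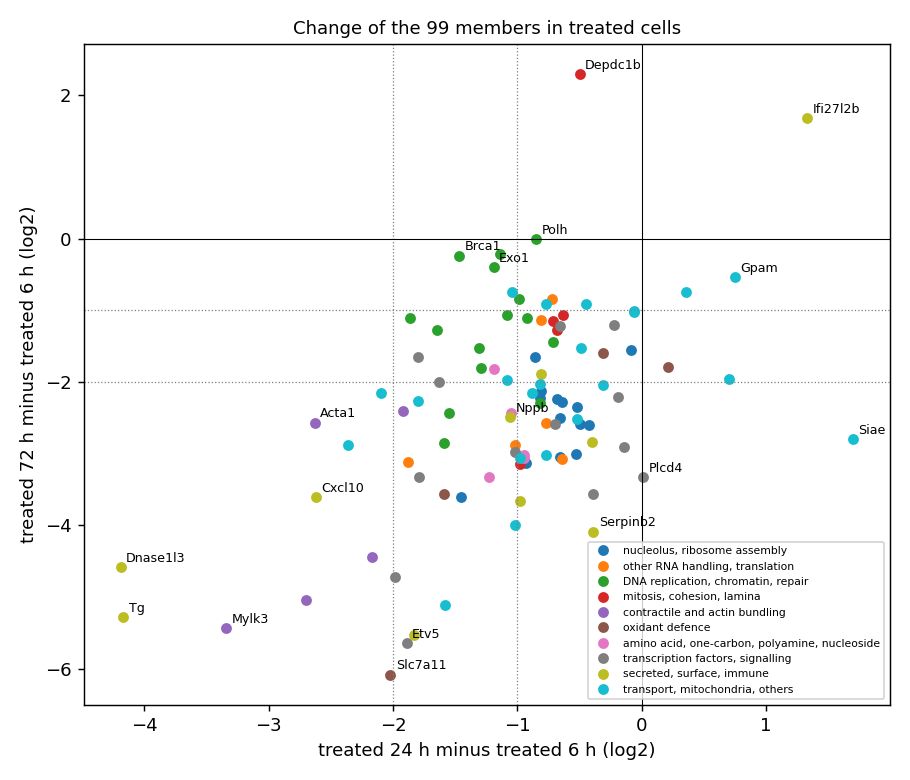
The 99 members in treated cells, with the 24 h minus 6 h mean on the x axis and the 72 h minus 6 h mean on the y axis, both in log2 units and coloured by role. Dotted lines mark -1 and -2. DNA replication, chromatin and repair genes (green) reach up to -0.01 on the y axis (Polh), while all ribosome assembly genes (blue) lie under -1.5 there and contractile genes (purple) under -1.9 on the x axis.

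The contractile and actin-bundling genes were the only role with no member kept at 24 h on the deposited scale. Under poly-A scaling or centring the amino acid, one-carbon, polyamine and nucleoside role had none either. At 72 h that role, ribosome assembly, oxidant defence, and transcription factors and signalling also had no member kept. None of the 5 contractile and actin-bundling members was kept at either time. All 5 were called lower at both, with medians of -2.63 at 24 h and -4.44 at 72 h against 6 h. In DMSO cells the role's median difference between 24 h and 6 h was -3.91. Against DMSO cells of the same time, all 5 lay at least 1 unit higher at 24 h and 3 at 72 h. The medians of treated minus DMSO were 2.17 and 2.0. Acta1, whose promoter carries the CArG box shown above, read 10.49, 10.33 and 10.14 in treated arrays at 6 h, 8.08, 7.49 and 7.48 at 24 h and 7.56, 7.97 and 7.73 at 72 h. The DMSO arrays stood at 9.32, 9.37 and 9.31 at 6 h, 5.30, 5.89 and 5.36 at 24 h and 2.83, 3.06 and 2.85 at 72 h. It fell by 2.63 (SE 0.17, limma adjusted p = 1.06e-08) in treated cells by 24 h and was then level (0.06, adjusted p = 0.75). The DMSO arrays reached background at 72 h, where treated cells were at least 13.5-fold higher.

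Actg2, the enteric smooth muscle actin, ended at 5.34, 5.11 and 4.75 in treated arrays at 72 h, which overlapped 4.90, 5.05 and 4.71 in DMSO arrays. Its treated change was -2.70 at 24 h and -5.04 at 72 h against 6 h, a 33-fold fall by 72 h. Myl9, a myosin light chain, and Mylk3, a kinase of such chains known from heart muscle, were at 4.02 to 5.21 and at background in treated arrays at 72 h. Mylk3 fell 10.1-fold by 24 h and at least 23.2-fold by 72 h in treated cells. Lcp1, an actin-bundling protein best known from blood cells, read 7.30, 6.83 and 6.97 in treated arrays at 24 h, against 3.0, 4.53 and 2.99 in DMSO arrays. It had a treated fall of 2.17 (SE 0.38, limma adjusted p = 0.000169). Of 17 tested genes on a list of YAP and serum response factor targets, Actg2 and Myl9 were members, and 11 were lower and 3 higher at 24 h against 6 h in treated cells, which became 8 and 0 under poly-A scaling, 0 also at an unadjusted limma p.

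Oxidant defence had 4 members, and all 4 had higher means in treated than in DMSO cells at 6 and 24 h. So did 73 and 95 of the 99 members at those times, and 4502 and 4893 of the 9149 genes tested. Hmox1, the heme-degrading enzyme, read 12.39, 12.73 and 12.67 in treated arrays at 6 h, 11.33, 10.75 and 10.95 at 24 h and 8.99, 8.99 and 9.14 at 72 h. In DMSO arrays it read 8.52, 8.19 and 8.45 at 6 h, 5.65, 5.56 and 5.29 at 24 h and 3.75, 3.67 and 3.78 at 72 h. Every treated array at 72 h was above every DMSO array at 6 h. Treated cells still lost 11.8-fold of their own 6 h level by 72 h (log2 change -3.56, SE 0.14, limma adjusted p = 7.07e-12). Srxn1, which repairs oxidised peroxiredoxins, and Akr1b8, an aldose reductase type enzyme, were kept at 24 h without a call, at -0.31 and 0.21, and fell by 1.59 and 1.79 by 72 h. Array weighting and the fit without treated replicate 3 at 24 h called Akr1b8 higher, and centring called Srxn1 lower, at 24 h.

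Slc7a11, the cystine importer that feeds glutathione synthesis, differed from these. It read 9.16, 9.14 and 9.47 in treated arrays at 6 h, 7.23, 7.12 and 7.38 at 24 h and 3.18, 3.35 and 3.02 at 72 h. DMSO arrays read 8.34, 8.30 and 8.40 at 6 h, 5.17, 4.88 and 4.50 at 24 h and 2.79, 2.78 and 2.84 at 72 h. Both groups were at background at 72 h. Its treated fall by 72 h was at least 38.2-fold. Of 23 tested NRF2 targets on a list that holds these 4 members, 10 were higher and 5 lower at 24 h against 6 h in treated cells (1 and 4 under poly-A scaling), and 19 were lower and 3 higher at 72 h against 24 h (9 and 1 under poly-A scaling).

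A further 5 members work in amino acid, one-carbon, polyamine and nucleoside metabolism, and each was called lower in treated cells in all 3 comparisons, except that 4 of 5 were at 72 h against 24 h under poly-A scaling. At 24 h 2 were kept, none under poly-A scaling. Slc7a5, the light chain of the leucine transporter, read 10.68, 10.82 and 10.50 in treated arrays at 6 h, 9.53, 9.25 and 9.53 at 24 h and 7.28, 7.44 and 7.30 at 72 h. The DMSO arrays stood at 10.31, 10.28 and 10.36 at 6 h, 7.45, 7.67 and 7.48 at 24 h and 5.64, 5.39 and 5.40 at 72 h. Treated arrays at 72 h were just under DMSO arrays at 24 h. Its treated change was -1.23 at 24 h (SE 0.10, limma adjusted p = 1.01e-07) and -3.33 at 72 h against 6 h. Bcat1, which starts the breakdown of branched-chain amino acids, was 17.7-fold higher in treated than in DMSO cells at 24 h and at least 4.57-fold at 72 h, where DMSO arrays were at background. Mthfd2, of mitochondrial folate metabolism, and Srm, spermidine synthase, had treated changes of -1.05 and -1.19 at 24 h. On a list of ATF4 and amino acid genes, with Slc7a5, Slc7a11 and Mthfd2 as members, 21 of 24 tested genes were lower and 1 higher at 24 h against 6 h in treated cells (15 and 0 under poly-A scaling, 0 also at an unadjusted limma p). At 72 h against 6 h 22 were lower, 18 under poly-A scaling.

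**Figure D4:**
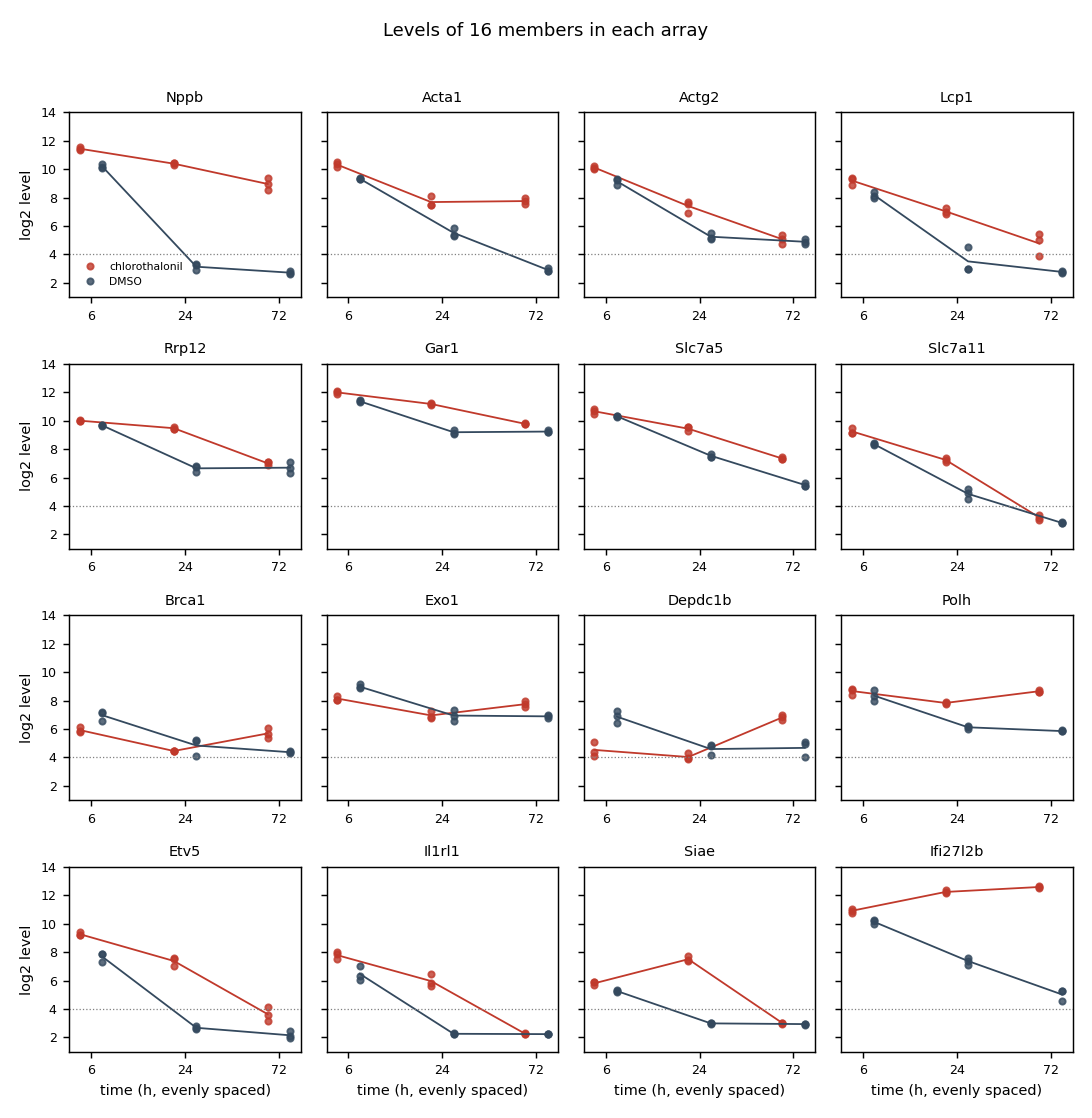
Log2 levels (y axis) of 16 members in each array at 6, 24 and 72 h (x axis), with chlorothalonil-treated arrays in red to the left and DMSO arrays in dark blue to the right. Points are arrays, lines join group means and the dotted line is log2 4. Nppb stands at 10.31 to 10.45 in treated arrays at 24 h, against 2.87 to 3.30 in DMSO arrays, and Ifi27l2b is higher at 72 h than at 6 h in treated arrays.

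Among secreted, surface and immune genes, 10 members, Nppb had the largest DMSO difference of all. It read 11.34, 11.58 and 11.40 in treated arrays at 6 h, 10.45, 10.31 and 10.40 at 24 h and 8.53, 8.98 and 9.36 at 72 h. In DMSO arrays it read 10.05, 10.36 and 10.12 at 6 h, then 3.22, 3.30 and 2.87 at 24 h and 2.69, 2.80 and 2.64 at 72 h. DMSO cells were at background at both later times, where treated cells were at least 83.5-fold and at least 31.0-fold higher. Nppb nevertheless fell by 1.06 (SE 0.16, limma adjusted p = 5.66e-05) in treated cells at 24 h against 6 h and by 1.43 at 72 h against 24 h, so it was not kept by the criterion at either time.

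Ifi27l2b, a small membrane protein of an interferon-responsive family, was the only member with the opposite direction in the 2 cultures at both later times. It read 11.08, 10.89 and 10.78 in treated arrays at 6 h, 12.38, 12.22 and 12.14 at 24 h and 12.53, 12.60 and 12.66 at 72 h. DMSO arrays read 9.99, 10.24 and 10.19 at 6 h, 7.39, 7.62 and 7.13 at 24 h and 4.57, 5.27 and 5.24 at 72 h. Treated arrays at both later times lay above all treated arrays at 6 h. Its treated change was 1.33 at 24 h (SE 0.16, limma adjusted p = 5.48e-06) and 1.68 at 72 h against 6 h, and treated cells were 190-fold above DMSO cells at 72 h.

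Serpinb2, an inhibitor of plasminogen activators, read 8.73, 8.72 and 8.97 in treated arrays at 24 h, against 2.32, 2.37 and 2.45 in DMSO arrays. Its treated change at 24 h of -0.39 (limma adjusted p = 0.0109) lost its call under poly-A scaling and without treated replicate 1 at 6 h. It then fell by 3.70 (SE 0.12, limma adjusted p = 3.91e-12) to reach 5.15, 4.89 and 5.28 at 72 h. Il1rl1, the receptor for interleukin-33, read 6.50, 5.59 and 5.82 in treated arrays at 24 h, while DMSO arrays were at background from 24 h on. Treated arrays of Il1rl1 were at background too at 72 h. The chemokine Cxcl10, the thyroid hormone precursor Tg and the nuclease Dnase1l3 were dim in DMSO cells at 6 h. Cxcl10 lay at 7.05, 7.27 and 6.97 in treated arrays at 6 h, against 4.52, 3.0 and 5.23 in DMSO arrays. DMSO arrays of all 3 were at background from 24 h on. In treated cells Cxcl10 was 6.14-fold, Tg 18-fold and Dnase1l3 at least 6.17-fold lower at 24 h than at 6 h. How far they were lower in DMSO cells is bounded by background, and Cxcl10 and Dnase1l3 passed the filter only with treated arrays, so the cultures are not compared for them. Lgals9, a secreted galectin, and Pvr, an adhesion receptor of the nectin family, were kept at 24 h, at -0.81 and -0.40.

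Another 13 members are transcription factors or intracellular signalling proteins. At 24 h 7 were kept and 8 called lower, and by 72 h none was kept and all 13 were called lower than at 6 h. Etv5, an ETS factor induced through the ERK pathway, read 9.21, 9.41 and 9.20 in treated arrays at 6 h, 7.59, 7.03 and 7.54 at 24 h and 3.19, 3.60 and 4.12 at 72 h. The DMSO arrays stood at 7.85, 7.34 and 7.85 at 6 h, 2.64, 2.83 and 2.57 at 24 h and 1.93, 2.42 and 2.1 at 72 h. Treated arrays at 24 h overlapped DMSO arrays at 6 h. It fell by 3.75 (SE 0.21, limma adjusted p = 8.39e-10) at 72 h against 24 h in treated cells. Plcd4, a phospholipase C, was held level in treated cells at 24 h.

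The Plcd4 arrays read 9.30, 9.23 and 9.21 at 6 h, 9.08, 9.50 and 9.19 at 24 h and 5.81, 6.34 and 5.61 at 72 h in treated cells. In DMSO cells they read 7.76, 7.57 and 8.18 at 6 h, 2.63, 2.70 and 2.89 at 24 h and 2.84, 2.84 and 2.74 at 72 h. The treated arrays at 24 h spanned those at 6 h, with no called change (0.01, SE 0.17, limma adjusted p = 0.971). By 72 h Plcd4 fell 10.1-fold below its 24 h level. Nr4a3, an orphan nuclear receptor made within hours of stimulation, read 5.33, 3.94 and 4.83 in DMSO arrays at 6 h, and its second probe set was at background in DMSO cells throughout. It passed the filter only with treated arrays, so its treated means of 7.05 at 6 h, 5.07 at 24 h and 2.33, which is background, at 72 h are a description. Cflar, likewise in the filter only with treated arrays, was not called at 24 h (-0.14) and was at background in treated arrays at 72 h. With no filter on low values another probe set of Cflar became the brightest, and the gene then did not meet the rule. Noct, a circadian phosphatase, averaged 8.27 in treated cells at 24 h, against 5.07 in DMSO cells, and Atf2, a CRE-binding factor, averaged 6.95, against 5.37. Dgkk, a diacylglycerol kinase, and Hey2, a Notch target, fell by 24 h, by 1.80 and 1.63, and had no called change after it.

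The remaining 22 members include transporters, mitochondrial proteins and genes of varied function. Of these 15 were kept at 24 h, 10 under poly-A scaling, and 5 at 72 h, and 3 of the 4 members called higher at 24 h were among them. Siae, which removes acetyl groups from sialic acids, read 5.88, 5.87 and 5.69 in treated arrays at 6 h, 7.36, 7.75 and 7.42 at 24 h and 3.04, 3.04 and 2.98 at 72 h. In DMSO arrays it read 5.30, 5.31 and 5.20 at 6 h, 2.94, 3.01 and 3.02 at 24 h and 2.94, 2.91 and 2.97 at 72 h. Treated arrays at 24 h lay above all other arrays, and both groups were at background at 72 h. Siae rose by 1.70 (SE 0.09, limma adjusted p = 8.54e-10) and then fell at least 11.4-fold.

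Abhd2, a lipid hydrolase, and Gpam, which begins triglyceride synthesis at the mitochondrial surface, rose by 0.70 and 0.75 at 24 h against 6 h in treated cells (limma adjusted p = 0.0181 and 0.0211). Both calls were lost under poly-A scaling (0.41 and 0.349). That of Abhd2 was also lost without treated replicate 3 at 6 h or replicate 1 or 2 at 24 h (0.0609 to 0.0768), and that of Gpam without treated replicate 2 or 3 at 6 h or replicate 3 at 24 h (0.0552 to 0.112), under quantile normalization (0.0598) and with treated arrays fitted alone (0.058). Mrs2 was kept at both times, with a change of 0.36 at 24 h that was not called and of -0.74 at 72 h that was. Slc25a37 was kept at both times, at -0.77 and -0.91. Its call at 24 h was lost without treated replicate 1 at 6 h (-0.46, adjusted p = 0.132) or replicate 2 at 24 h (-0.68, adjusted p = 0.0778). Slc30a1, a zinc exporter, and Nkain1, which interacts with the sodium pump, were not held. By 24 h in treated cells Slc30a1, then at background, fell at least 2.57-fold and Nkain1 4.29-fold. Slc17a6, a vesicular glutamate transporter, fell by 1.58 by 24 h and by a further 3.53 by 72 h. Fam167a, of unsettled function, averaged 7.97 in treated cells at 24 h, against 2.85 in DMSO cells. Steap1, a metalloreductase, averaged 9.58 in treated cells at 24 h, against 7.64 in DMSO cells, and Timm8a1, a mitochondrial import chaperone, averaged 10.23, against 8.51. A second probe set of Timm8a1 had a DMSO difference of -1.42 at 72 h against 6 h and did not meet the rule. Its treated change at 24 h was -1.12. Peg10, derived from a retroelement, had 1 DMSO array at 6 h (3.32) well below the other two (5.97 and 6.52).

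By course, 32 members were kept at 24 h and at least 2 units under at 72 h, the most common course, and 11 of these were ribosome assembly genes. Both times at least 2 units under were the 10 members Acta1, Actg2, Cxcl10, Dnase1l3, Lcp1, Mylk3, Nkain1, Slc30a1, Slc7a11 and Tg. Kept at both times were 9, Bard1, Depdc1b, Gemin6, Gpam, Ifi27l2b, Mrs2, Polh, Slc25a37 and Taf6l, a subunit of histone acetylase complexes. The criterion compares with treated cells at 6 h, when Bard1, Depdc1b and Gpam already lay at least 1 unit under DMSO cells. A further 4, Brca1, Ddias, Exo1 and Depdc7, were between 1 and 2 units under at 24 h and kept at 72 h. Of these 13 members kept at 72 h, 5 belonged to DNA replication and repair and 5 to transport, mitochondria and others. Brca1 too lay at least 1 unit under DMSO cells at 6 h. Over 14 members with a second probe set that passed the filter, 12 of these sets had lower DMSO means at both later times and 7 met the rule themselves. Those of Coa7, Depdc7, Nkrf, Nr4a3, Pds5b, Plcxd2 and Timm8a1 did not meet it.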

How the data were processed

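RNA of 18 arrays of NRK-52E cells was measured on Affymetrix rat arrays. The authors deposited log2 values of 31099 probe sets in 1 table. Per the submitters' processing notes GCRMA produced them, and no version or option of it is known from the labels. GCRMA models and subtracts background and commonly forces arrays onto 1 distribution, so a shift shared by most transcripts would not show. The platform annotation gave 1 symbol to 20832 probe sets, several to 436 and none to 9831, and 20764 symbols were updated through Entrez with RefSeq's GRCr8 table. A further 32 of 3646 unnamed probe sets passing the filter met the rule and are not described. Arrays were grouped by their titles. One model with 6 group means over the 18 arrays was fitted with limma 3.58.1 in R 4.3.3 (12 residual and 2.76 prior degrees of freedom), two-sided, with Benjamini-Hochberg adjustment over 9149 genes and a threshold of 0.05. The script was tested on simulated data. Only contrasts among treated arrays were tested. Each p-value sets a difference against the spread between replicate arrays, pooled over all 6 groups, DMSO included, and combined with limma's prior. The number of replicate arrays limits the precision. A change involving a group with all 3 arrays at or below log2 4 is given, where printed as a fold, as at least N-fold, the brighter mean against log2 4; list medians use the fitted values. Members, gene lists and tests were chosen with earlier results of these data known, and roles were assigned after the members were seen. Named genes were members with the largest or smallest treated and DMSO differences, members of the lists (at most 5 per list), and genes beside the threshold; further members named in the text were chosen after their values were seen. Alternatives covered scaling, filter, probe set, rule threshold, tolerance, arrays fitted, array weights, a replicate block and leaving out each array.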

Additional observations from a re-analysis of the deposited data

Results flagged for a closer look

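A few members moved one way in every treated array and the opposite way in every DMSO array over the same interval. The difference between the cultures was not tested, because the DMSO arrays chose the members for being lower. Between 6 h and 24 h in treated cells, Siae was higher by 1.70 on the log2 scale, Ifi27l2b by 1.33, Gpam by 0.75, Abhd2 by 0.70 and Mrs2 by 0.36, while each was at least 2 units lower in DMSO cells. Between 6 h and 72 h, Depdc1b was higher by 2.29 and Ifi27l2b by 1.68 in treated cells, again with DMSO cells at least 2 units lower. The change of Mrs2 was not called by limma (adjusted p = 0.102).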

How the results depend on the processing

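The counts of members called lower kept within 1.5 times of their main values under quantile normalization, centring, poly-A scaling, other filters, probe sets bound to 1 transcript, array weights and treated arrays alone. Poly-A scaling gave 2 members higher at 24 h and 38 kept at 24 h. By their second probe sets, of 14 members 12 were lower at 24 h against 6 h, 14 lower at 72 h against 6 h, 6 lower at 72 h against 24 h, 0 higher at 24 h, 5 kept at 24 h and 3 at 72 h. With a rule of 1.5 units, 279 members gave 211, 238, 198, 11, 201 and 84 in that order, and with a rule of 3 units, 18 members gave 17, 18, 13, 0, 5 and 0. Neither count of 0 higher held any member at an unadjusted limma p under 0.05. A tolerance of 1.5-fold kept 26 at 24 h and 7 at 72 h, and one of 2 log2 units kept 89 and 38. Leaving out each array in turn gave 63 to 91 lower at 24 h against 6 h, 77 to 106 lower at 72 h against 6 h, 64 to 91 lower at 72 h against 24 h, 2 to 5 higher at 24 h, 45 to 69 kept at 24 h and 5 to 17 kept at 72 h, with 81 to 114 members (114 without DMSO replicate 2 at 6 h). Member medians ranged from -0.93 to -0.82, -2.49 to -2.24 and -1.53 to -1.28 in those 3 comparisons. With the replicate block, 80, 92, 76 and 4 members were called in the same comparisons; same-numbered arrays correlated at -0.179 to 0.055 between treated groups and at up to 0.305 between treated and DMSO arrays of a time, not over 0.1 in every pair, so the numbers were not taken to pair the arrays. Chosen again after seeing the data, members numbered 109 under quantile normalization (96 shared), 78 when centred (78 shared) and 69 under poly-A scaling (68 shared). Limits: with 3 arrays a group and no sample before exposure, a level at 6 h is not a starting level, and values near log2 4 are bounds. No DMSO change is independent evidence.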
